A study of Homo sapiens with 12 samples.

Results

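The genes described here are 41 genes of ribosome biogenesis and RNA polymerase I, chosen by symbol and followed in HL-60 cells through 4 treatments. Every one of the 41 symbols was found among the 42157 genes counted, and 40 had enough reads to be tested. By their known roles, 7 belong to RNA polymerase I and its factors, 8 to the processing of the small ribosomal subunit, 12 to the assembly of the large subunit, 8 to the small nucleolar ribonucleoproteins (snoRNPs) and 6 are other nucleolar proteins. HL-60 is a human cell line of acute myeloid leukemia, so that all values come from 1 line. Polyadenylated RNA was sequenced from 12 libraries, 3 of each group, taken after 3 h in DMSO (the mock treatment), 1 µM DNR, 0.5 µM ML-792 or ML-792+DNR at those same concentrations. DNR is daunorubicin, an anthracycline that intercalates into DNA and poisons topoisomerase II, and ML-792 blocks SUMO-activating enzyme, the first step in the conjugation of the protein modifier SUMO. The comparisons ask how the drug, the inhibitor and their combination changed these transcripts.

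Ribosomes are built in the nucleolus, where RNA polymerase I transcribes the long precursor of the ribosomal RNAs. That precursor is cut, methylated and pseudouridylated with the help of snoRNPs, and it is packed with ribosomal proteins by separate sets of factors for the small and the large subunit. The transcription factor MYC, which is amplified in HL-60 cells, is a known activator of many of these genes through the DNA letters CACGTG, called an E-box, and anthracyclines are known inhibitors of RNA polymerase I. Libraries of polyadenylated RNA hold the messenger RNAs of these factors and not the ribosomal RNA itself, so that its synthesis was not measured. In bulk samples of this kind, fewer cells that express a gene and less RNA of it per cell cannot be told apart.

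The letters CACGTG stood in the promoter window of 9 of the 35 members that have one in the RefSeq table (build GRCh38.p14), or 25.7%. A window runs from 250 bases before to 50 bases after the start of transcription, and the motif reads the same on both strands. Of the windows of all genes tested, 10.5% held it (1011 of 9585), as did 7.26% of all 35116 windows and 31.2% of the 93 windows of other ribosome biogenesis genes. The 9 stretches are shown because they are the sequence feature that these members share, with the motif in capitals and up to 12 bases on either side, 5′ to 3′ on the strand of the gene. Their positions are on GRCh37, the build of the files, from exact matches of the RefSeq sequence.
NOP2 (chr12:6677408-6677434, minus strand): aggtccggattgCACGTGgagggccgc
FBL (chr19:40336996-40337025, minus strand): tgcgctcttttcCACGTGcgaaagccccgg
PES1 (chr22:30987867-30987896, minus strand): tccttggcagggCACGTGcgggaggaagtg
WDR43 (chr2:29117524-29117553, plus strand): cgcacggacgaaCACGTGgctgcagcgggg
RRP9 (chr3:51975908-51975937, minus strand): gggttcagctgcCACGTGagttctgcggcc
MYBBP1A (chr17:4458635-4458664, minus strand): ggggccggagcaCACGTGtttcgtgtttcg
NAT10 (chr11:34127149-34127175, plus strand): aatgcgcttgcgCACGTGctgtctacc
UTP20 (chr12:101673861-101673882, plus strand): cttttttccgtcCACGTGaccc
EBNA1BP2 (chr1:43638461-43638490, minus strand): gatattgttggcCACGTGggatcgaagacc
In EBNA1BP2 the motif lay 237 bases before the start given in RefSeq, and in NAT10 and UTP20 it lay 15 and 10 bases before it. The canonical transcript of EBNA1BP2 used for level and span has another start, at chr1:43637961, which lies farther from the motif. A match of these letters is a description of the sequence and was not tested for binding. The changes of these 9 genes are set beside those of the other members after the account of DNR.

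Each library held 28647951 to 46451654 reads in genes, and 1.504% to 1.86% of them came from the 41 members. Mitochondrial genes took 4.01% to 6.37% of the reads in the replicate 1 libraries of the 4 groups and 2.49% to 3.48% in the others. The 6 myeloid markers summed to 10400 to 13400 CPM (counts per 1000000 reads in genes) in the 12 libraries, nearly all of it MPO, the peroxidase of primary granules. The 6 lymphocyte markers summed to 7.3 to 13.5 CPM, of which NKG7 made most, with CD3E and MS4A1 at 0 in every library. The erythroid and the stromal and epithelial markers stayed at or under 0.0864 and 0.0928 CPM, with HBB, HBA1, COL1A2 and EPCAM at 0. Below, the values of a group are given in the order of replicates 1, 2 and 3. Whether the libraries of compared groups overlap is stated for the members only, without the share of all genes tested. Groups could also lie apart for members that were not called, as for HEATR1 and NPM1 in DNR against DMSO.

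Levels of the members differed widely in the DMSO group. Per kb of the canonical transcript, NPM1, the nucleolar chaperone nucleophosmin, had the highest level, at 1540 ± 67.5 CPM per kb (SD, n = 3), followed by nucleolin (NCL) at 960 ± 88.8 and fibrillarin (FBL), the methyltransferase of box C/D snoRNPs, at 878 ± 107 CPM per kb. The means ± SD of NCL and FBL overlapped. NOP56, another core protein of box C/D snoRNPs, followed at 494 ± 33.2 CPM per kb. The lowest tested levels were those of UTP15, a subunit of the t-UTP complex, at 8.24 ± 0.73 CPM per kb, and of POLR1A, the largest subunit of RNA polymerase I, at 10.4 ± 0.25 CPM per kb. POLR1B, the second-largest subunit, stood at 18.5 ± 0.70 CPM per kb, and POLR1D, a small subunit shared with RNA polymerase III, at 271 ± 19.9 CPM per kb. Per kb, the transcripts of subunits of 1 enzyme thus lay far apart. Without division by length they lay closer, with mean DMSO levels of 130 CPM for POLR1A, 139 CPM for POLR1B and 188 CPM for POLR1D. Their canonical transcripts are 12.48, 7.527 and 0.693 kb long, so the spread per kb rests mostly on these lengths. RRN3, the initiation factor that brings the polymerase to the promoter, was at 16.5 ± 1.04 CPM per kb, and UBTF, which binds along the active ribosomal RNA genes, at 55.1 ± 2.20 CPM per kb. NPM1 has 49 annotated pseudogenes, DDX18 has 5 and RRN3 has 4, and the 26.6% to 29.2% of records with more than 1 alignment were not counted, so that the levels of these genes are uncertain. PPAN, a factor of large subunit assembly, had 0 counts in all 12 libraries, which allows up to 0.0646 CPM in the deepest and 0.105 CPM in the shallowest library. Of its transcript, 61.8% lies in exons shared with the genes PPAN-P2RY11 and P2RY11, where reads are ambiguous, so that its level is not known from these counts.

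**Figure D1:**
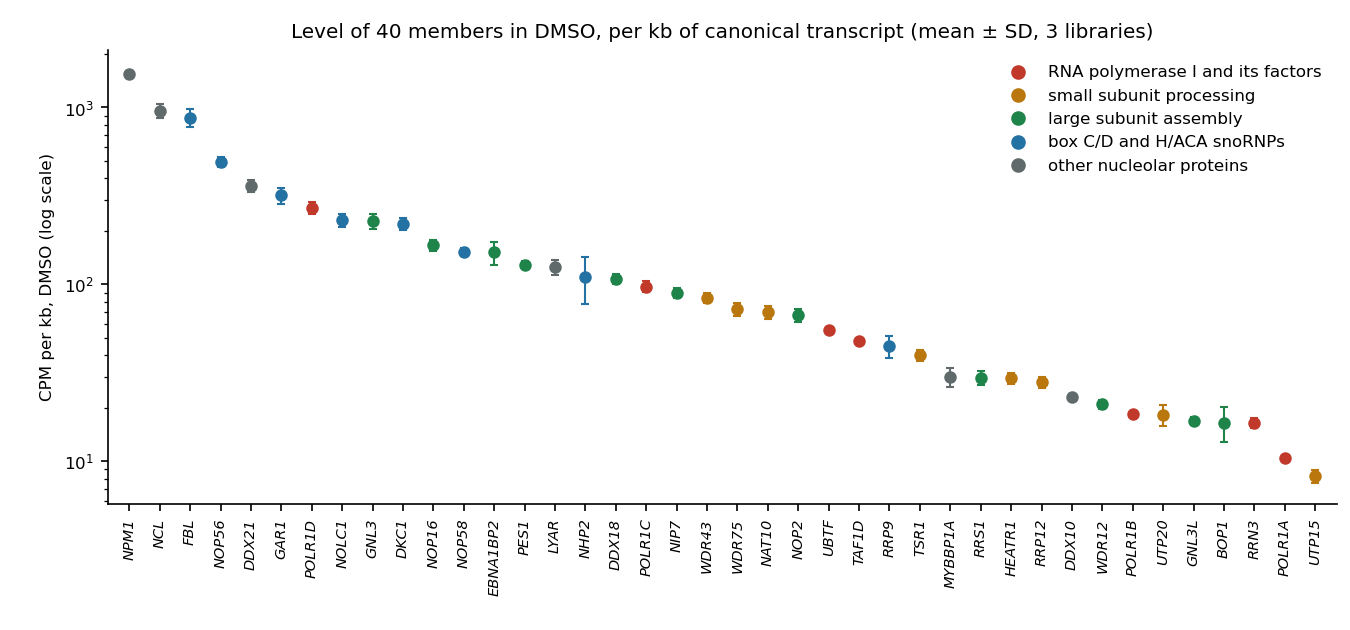
Level of the 40 tested members in the DMSO group as CPM per kb of canonical transcript (log scale), with points for the mean of 3 libraries and bars for the SD, coloured by role. NPM1 at 1540 CPM per kb and UTP15 at 8.24 CPM per kb mark the ends of the range.

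In cells treated with DNR, 9 of the 40 tested members fell and 2 rose relative to DMSO. A member was called at an adjusted p under 0.05 in edgeR's quasi-likelihood test, fitted to all 12 libraries and adjusted over 13696 genes. Over all those genes 15.7% were called lower and 14.3% higher, beside 22.5% and 5% of the members. The median log2 fold change of the members was -0.03, with quartiles at -0.27 and 0.10, beside a median of 0.01 over all genes tested. Without 1 library at a time the members' median ran from -0.147 (without DNR replicate 2) to -0.01 (without DNR replicate 3). Changes were modest. Of the 40 tested members, 3 fell by at least 1.5-fold, as did 995 of all 13696 genes tested. No member reached 2-fold, which 6.98% of all genes tested did in either direction.

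**Figure D2:**
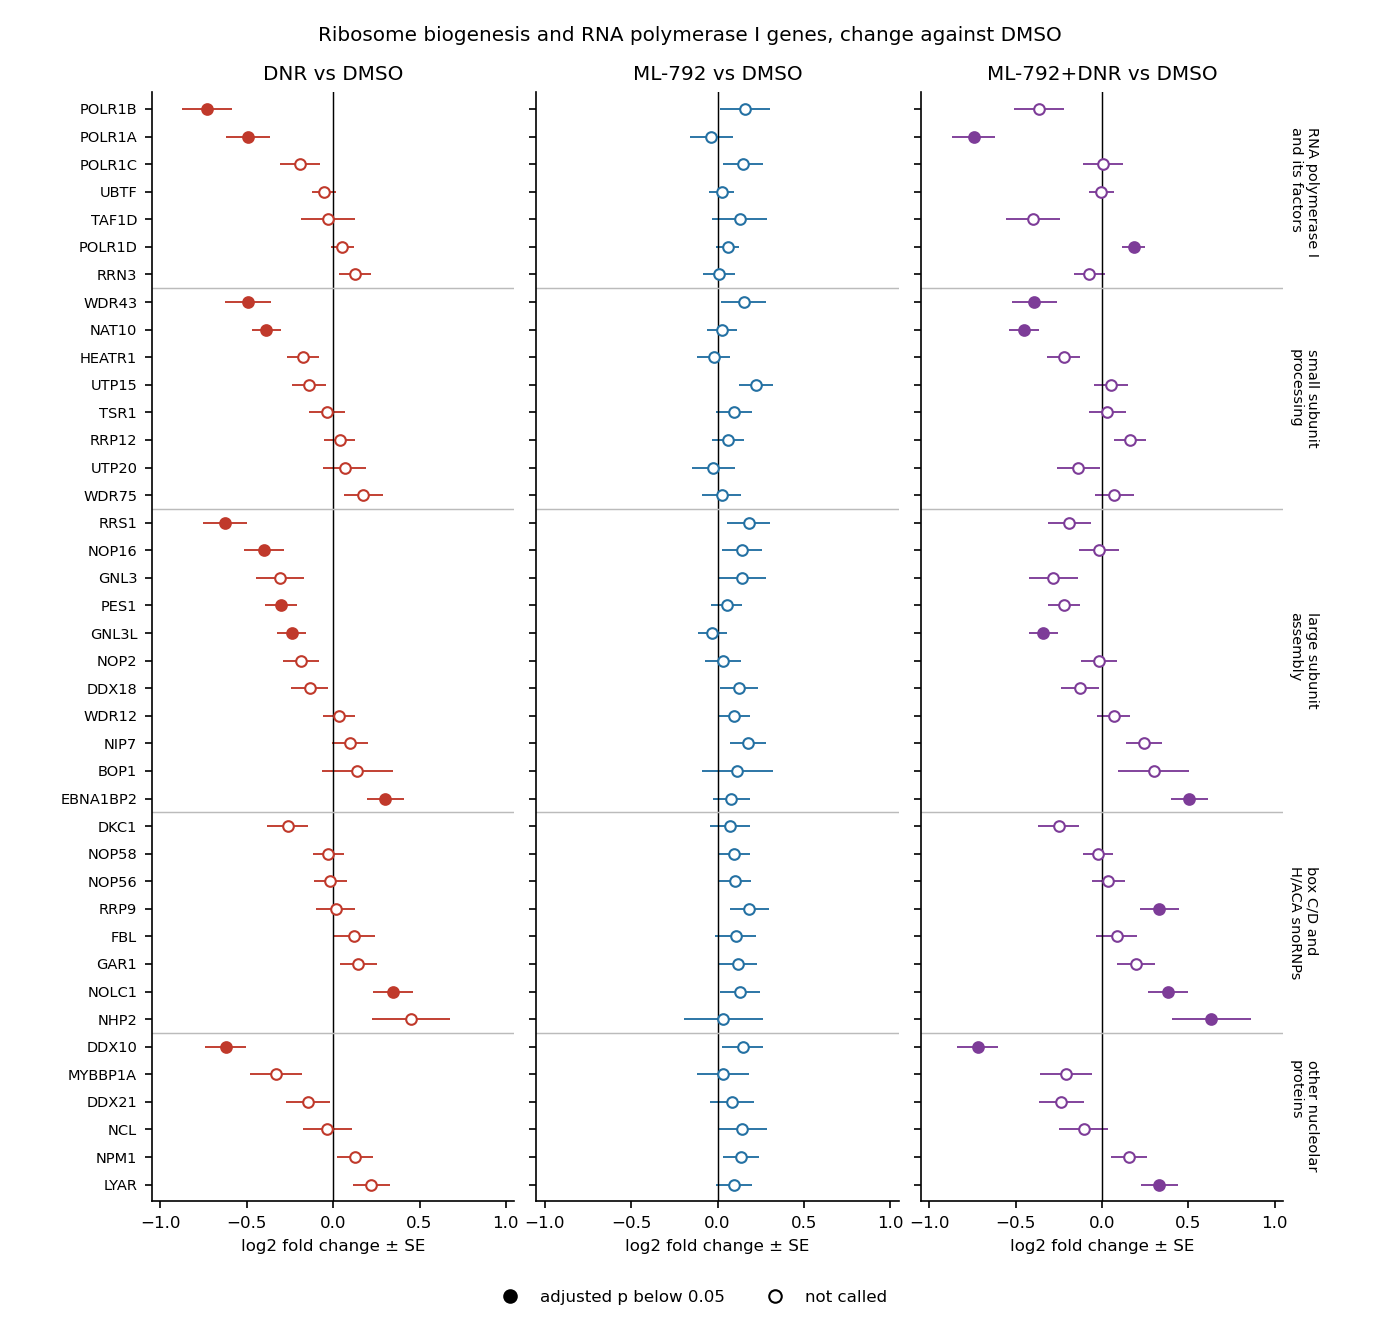
log2 fold change against DMSO (point) with its SE (bar) of the 40 tested members in DNR, ML-792 and ML-792+DNR, in rows by role. Filled points passed an adjusted p under 0.05 in edgeR's quasi-likelihood test: 11 members in DNR, 0 in ML-792 and 11 in ML-792+DNR.

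Of the 7 members of RNA polymerase I and its factors, the 2 that fell after DNR were its 2 largest subunits, and none rose. POLR1B (chr2:113300042-113337395, plus strand) was at 142, 142 and 133 CPM in DMSO and at 70.3, 102 and 78.9 CPM in DNR. All DNR libraries lay below all DMSO libraries, and the fall was the largest of any member (log2 fold change -0.73 ± 0.15 (SE), adjusted p = 0.00205). POLR1A (chr2:86247339-86333009, minus strand) was at 134, 128 and 129 CPM in DMSO and at 79.4, 99.5 and 98.6 CPM in DNR, again without overlap. Its log2 fold change was -0.49 ± 0.13 (adjusted p = 0.00982). Both calls held when any 1 of the 12 libraries was left out and in replicates 2 and 3 alone. The other 5 members of the group did not pass the test. POLR1C, a subunit shared with RNA polymerase III, had a log2 fold change of -0.19 ± 0.12 and POLR1D one of 0.05 ± 0.07. UBTF was at 275, 264 and 254 CPM in DMSO and at 243, 271 and 250 CPM in DNR, with overlapping ranges. RRN3 (0.13 ± 0.09 on the log2 scale) and TAF1D, a subunit of the promoter selectivity complex SL1 (-0.03 ± 0.16), were also not called.

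Among the 8 members of small subunit processing, 2 fell and none rose. WDR43, the t-UTP subunit that starts to assemble on the nascent precursor, was at 308, 300 and 273 CPM in DMSO and at 185, 245 and 196 CPM in DNR, with no overlap between the groups (log2 fold change -0.49 ± 0.13, adjusted p = 0.0126). The call was lost without DNR replicate 1 (adjusted p = 0.0654) and without DNR replicate 3 (adjusted p = 0.0532). NAT10, the acetyltransferase that modifies cytidines of 18S ribosomal RNA, was at 304, 264 and 262 CPM in DMSO and at 205, 223 and 207 CPM in DNR. The groups did not overlap (log2 fold change -0.39 ± 0.09, adjusted p = 0.00443), and the call held without each library, though not in replicates 2 and 3 alone (adjusted p = 0.0723). HEATR1, UTP15, TSR1, RRP12, UTP20 and WDR75, which are further factors of the small subunit processome or of later maturation, did not pass, with log2 fold changes from -0.18 to 0.17.

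Large subunit assembly held 4 of the 9 members that fell and 1 of the 2 that rose, among 11 tested. RRS1, a factor that helps to bring the 5S particle into the large subunit, was at 46.4, 55.2 and 52.1 CPM in DMSO and at 31.0, 35.3 and 33.3 CPM in DNR. The groups did not overlap (log2 fold change -0.63 ± 0.13, adjusted p = 0.00238), and the call held without each library. NOP16, another assembly factor, was at 139, 159 and 142 CPM in DMSO and at 99.5, 129 and 106 CPM in DNR, without overlap (-0.40 ± 0.12 on the log2 scale, adjusted p = 0.0208). PES1, or pescadillo, a subunit of the PeBoW complex, was at 308, 285 and 279 CPM in DMSO and at 217, 263 and 226 CPM in DNR, without overlap (-0.30 ± 0.09, adjusted p = 0.0238). GNL3L, a nucleolar GTPase, was at 154, 138 and 150 CPM in DMSO and at 122, 130 and 122.9 CPM in DNR, without overlap (-0.24 ± 0.08, adjusted p = 0.0468). The call of NOP16 was lost without DMSO replicate 2 (adjusted p = 0.0735), DNR replicate 1 (0.105) or DNR replicate 3 (0.0818), and that of PES1 without DMSO replicate 1 (0.0785), DNR replicate 1 (0.109) or DNR replicate 3 (0.0858). That of GNL3L was lost without DMSO replicate 1 (0.117), DMSO replicate 3 (0.0989), DNR replicate 1 (0.129), DNR replicate 3 (0.120), replicate 2 of ML-792 (0.0612) or replicate 3 of ML-792+DNR (0.0527), and with no filter on low counts (0.0601).

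EBNA1BP2, the large subunit factor also called EBP2, was the member of this group that rose. It was at 195, 239 and 182 CPM in DMSO and at 265, 264 and 230 CPM in DNR, where the lowest DNR library lay under the highest DMSO library (log2 fold change 0.30 ± 0.11, adjusted p = 0.0475). Its call was lost without DMSO replicates 1 (adjusted p = 0.189) or 3 (0.233), DNR replicates 1 (0.173) or 2 (0.137), ML-792 replicates 2 (0.0501) or 3 (0.0672), or ML-792+DNR replicates 1 (0.0628) or 2 (0.0504). It was also lost with median-of-ratios size factors (0.0529) and with library size alone as the scaling (0.0622). The other subunits of PeBoW, BOP1 and WDR12, had log2 fold changes of 0.14 ± 0.20 and 0.04 ± 0.09 and did not pass. Nucleostemin (GNL3) was at 447, 477 and 395 CPM in DMSO and at 317, 418 and 330 CPM in DNR, with overlap, and did not pass (adjusted p = 0.115). The methyltransferase NOP2, the helicase DDX18 and NIP7 did not pass either.

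Of the 8 snoRNP members, 1 rose and none fell. NOLC1, or Nopp140, a chaperone of snoRNPs, was at 898, 894 and 776 CPM in DMSO and at 1051, 1219 and 992 CPM in DNR, and every DNR library lay above every DMSO library (log2 fold change 0.35 ± 0.12, adjusted p = 0.0386). The call was lost without DMSO replicates 1 (adjusted p = 0.0769), 2 (0.0666) or 3 (0.169), DNR replicates 1 (0.0761) or 2 (0.148), or ML-792+DNR replicate 1 (0.0523). The core proteins of the box C/D particles did not pass the test. NOP56 was at 960, 1000 and 876 CPM in DMSO and at 893, 1018 and 892 CPM in DNR (-0.02 ± 0.10 on the log2 scale), and NOP58 and FBL had log2 fold changes of -0.03 ± 0.09 and 0.12 ± 0.12. Dyskerin (DKC1), the pseudouridine synthase of the H/ACA particles, was at 572, 563 and 492 CPM in DMSO and at 418, 521 and 416 CPM in DNR, with overlap, and did not pass (adjusted p = 0.108). Its partners GAR1 and NHP2 had log2 fold changes of 0.15 ± 0.11 and 0.45 ± 0.23 and did not pass either, nor did RRP9, which binds the U3 snoRNA (0.01 ± 0.11).

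Among the other nucleolar proteins, DDX10 fell and the other 5 did not pass. DDX10, an RNA helicase of the DEAD-box family (chr11:108535796-108811654, plus strand), was at 75.9, 76.5 and 71.5 CPM in DMSO and at 43.9, 55.9 and 45.7 CPM in DNR. The groups did not overlap (log2 fold change -0.62 ± 0.12, adjusted p = 0.00164), and the call held without each library, though not in replicates 2 and 3 alone (adjusted p = 0.0514). The 2 members with the highest level per kb, NPM1 and NCL, did not pass. NCL was at 3958, 3978 and 3365 CPM in DMSO and at 3272, 4321 and 3448 CPM in DNR (log2 fold change -0.03 ± 0.14, with a 95% interval from -0.34 to 0.27), and NPM1 at 2085, 2085 and 1930 CPM in DMSO and at 2129, 2390 and 2148 CPM in DNR (0.13 ± 0.10, interval from -0.10 to 0.35). MYBBP1A, DDX21 and LYAR, a nucleolar zinc finger protein, had log2 fold changes of -0.33 ± 0.15, -0.15 ± 0.13 and 0.22 ± 0.11.

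**Figure D3:**
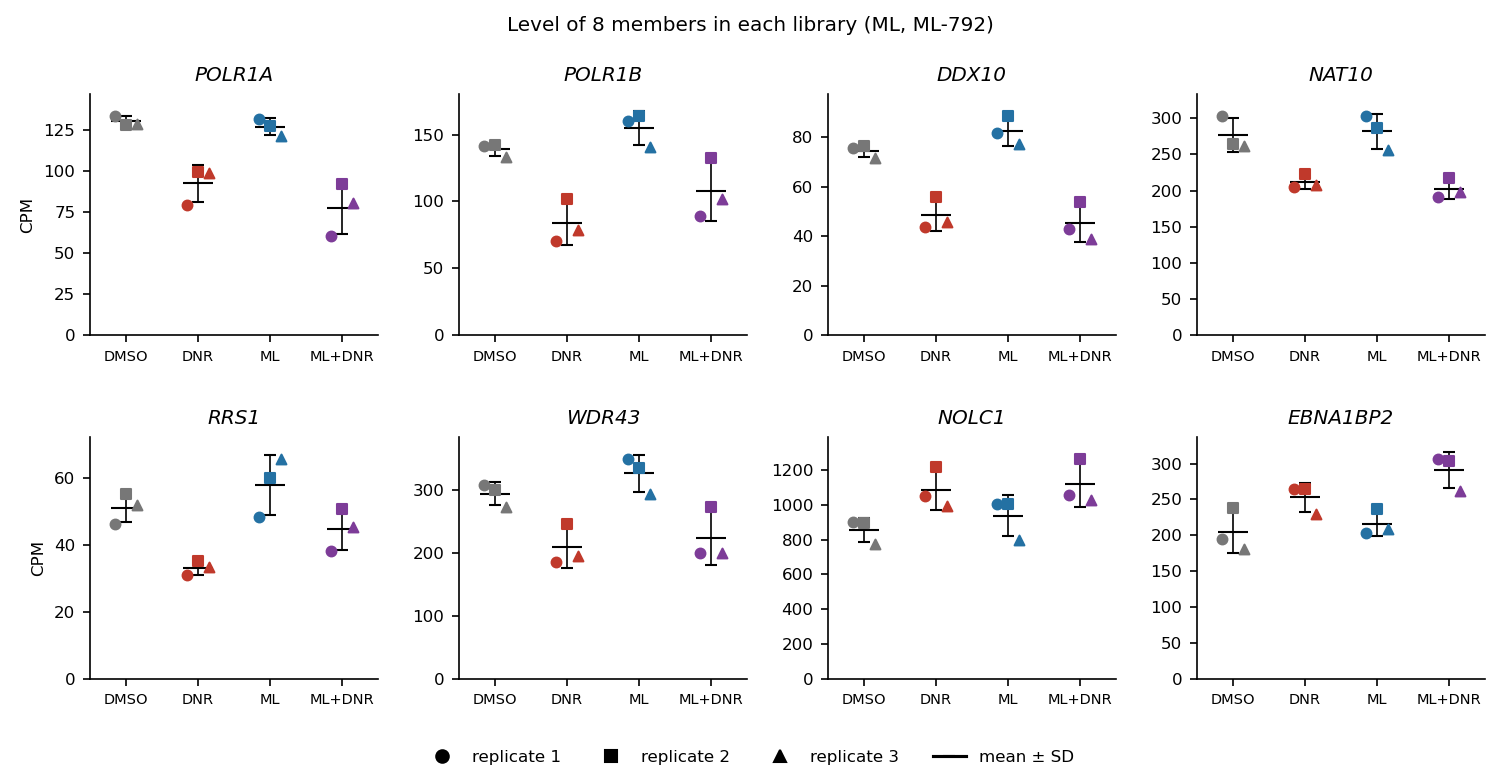
CPM of 8 members in each library by group, with symbols for replicates 1, 2 and 3 and the black mark and bar for the mean ± SD of 3 libraries; ML stands for ML-792 on the horizontal axis. For POLR1A, POLR1B, DDX10, NAT10, RRS1 and WDR43 all DNR libraries lie below all DMSO libraries, and for NOLC1 all lie above.

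The number of members called after DNR depended on single libraries. Leaving out 1 library at a time gave 5 to 13 members lower and 0 to 3 higher. Shares over all genes in these fits are not given, so the ranges describe the members only. The count of lower members was 5 without DNR replicate 1 and 5 without DNR replicate 3. That of higher members was 0 without DMSO replicate 1, DMSO replicate 3, DNR replicate 1, DNR replicate 2 or ML-792+DNR replicate 1, and 1 without DMSO replicate 2, either of ML-792 replicates 2 and 3, or ML-792+DNR replicate 2. The members called without every library in turn were POLR1B, RRS1, DDX10, POLR1A and NAT10, 5 of 11. With the replicate number as a block in the same test, 12 members were lower and 4 higher, beside 21.8% and 20.3% of all genes. Calls gained were MYBBP1A (adjusted p = 0.00656), GNL3 (0.0117) and DKC1 (0.0156) lower, and LYAR (0.00553) and GAR1 (0.0468) higher. Deviations of DMSO and DNR libraries of the same number correlated at r = 0.0852, 0.249 and 0.336, and the limit set for pairing was 0.1. Between libraries of the same number, the median log2 ratio of DNR to DMSO over the members was -0.22 in replicate 1, 0.01 in replicate 2 and -0.04 in replicate 3. In replicates 2 and 3 alone, which hold the lower shares of mitochondrial reads, 3 members were lower (POLR1A, POLR1B and RRS1) and none was higher. Over all genes in that fit, 1026 were lower and 885 higher. The part of the mitochondrial share in these results was not tested.

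Members that fell after DNR were found both with and without the letters CACGTG. Of the 9 with the motif, 3 were lower (WDR43, NAT10 and PES1) and 1 was higher (EBNA1BP2), with log2 fold changes from -0.49 to 0.30 and a median of -0.18. Of the 25 tested members whose window lacks it, 5 were lower and none was higher, with a range from -0.73 to 0.45 and a median of -0.04. POLR1B and RRS1, which fell most, are not among the 9. In ML-792+DNR against DMSO, 2 of the 9 were higher and 2 lower, beside 3 higher and 3 lower of the 25. Over all genes tested, 15.7% were lower and 14.3% higher after DNR, and 18.4% and 17% in ML-792+DNR. Shares for all genes with or without the motif are not given, and the part of the motif in these changes was not tested.

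None of the 40 tested members passed edgeR's test in ML-792 alone relative to DMSO, and 0.241% of all genes tested did. At an unadjusted p under 0.05 there was 1 member, and DESeq2 and limma voom also called none. That member was UTP15, at 46.2, 39.2 and 40.5 CPM in DMSO and at 51.4, 52.9 and 42.7 CPM in ML-792, with overlap (log2 fold change 0.22 ± 0.10, adjusted p = 0.909). The values were small and mostly positive. The log2 fold change lay above 0 for 36 of the 40 members, with a range from -0.04 to 0.22 and a median of 0.10, beside a median of -0.005 over all genes tested. Of all 13696 genes tested 6618 lay above 0, as did 95 of 113 other ribosome biogenesis genes. The members share the same libraries, so their values are not independent. Without 1 library at a time the members' median ran from 0.046 (without DMSO replicate 3) to 0.149 (without replicate 3 of ML-792). Between libraries of the same number the median over the members was 0.12, 0.09 and 0.05. NCL was at 4501, 4248 and 3730 CPM in ML-792, overlapping its DMSO libraries (0.14 ± 0.14, interval from -0.16 to 0.45). With the replicate number as a block there was still no call among the members.

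In cells treated with ML-792+DNR, 5 members fell and 6 rose relative to DMSO, or 12.5% and 15%, beside 18.4% lower and 17% higher over all genes tested. None reached 2-fold, which 6.48% of all genes did. This comparison shares its DMSO libraries with the preceding ones. The median log2 fold change of the members was -0.02 (0.015 over all genes), and its sign rested on single libraries: it was 0.025 without ML-792+DNR replicate 3, 0.012 in replicates 2 and 3 alone, and down to -0.085 without ML-792+DNR replicate 2. With library size alone as the scaling the split was 7 lower and 3 higher, with NHP2 (adjusted p = 0.0835), RRP9 (0.0691) and POLR1D (0.174) no longer called, and with no filter on low counts 8 members were lower. Shares over all genes in these fits are not given, so the counts describe the members only. The replicate numbers pair these 2 groups as their deviations correlate, and with the number as a block 12 members were lower and 8 higher, beside 24.4% and 24.5% of all genes.

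POLR1A fell most in the combination, at 60.7, 92.1 and 80.2 CPM against 134, 128 and 129 CPM in DMSO (log2 fold change -0.74 ± 0.13, adjusted p = 0.000695). DDX10 was at 43.1, 53.7 and 39.0 CPM (-0.72 ± 0.12, adjusted p = 0.000595) and NAT10 at 191, 218 and 198 CPM (-0.45 ± 0.09, adjusted p = 0.00152). For these 3 genes no library of the combination reached the lowest DMSO library, and the calls held without each library and in replicates 2 and 3 alone. WDR43 was at 199, 273 and 199 CPM, its highest library level with the lowest DMSO library, and its call (-0.39 ± 0.13, adjusted p = 0.0330) was lost without DMSO replicate 1 (0.0931), DMSO replicate 2 (0.0761), ML-792+DNR replicate 1 (0.131) or ML-792+DNR replicate 3 (0.125). GNL3L, at 107, 133 and 110 CPM, lay below DMSO (-0.34 ± 0.08, adjusted p = 0.00737), and its call held without each library. POLR1B was at 89.3, 133 and 102 CPM, below all DMSO libraries, but did not pass (-0.36 ± 0.14, adjusted p = 0.0645). It passed with the replicate block (adjusted p = 0.00980), as did TAF1D (0.0309), which was at 46.5, 67.5 and 63.8 CPM against 79.2, 76.2 and 79.0 CPM in DMSO.

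The 6 members that rose in the combination included 3 of the snoRNP proteins. NHP2, a core protein of the H/ACA particles, was at 60.9, 112 and 84.2 CPM in DMSO and at 140, 132 and 127 CPM in ML-792+DNR, with no overlap (log2 fold change 0.63 ± 0.23, adjusted p = 0.0455). Of the NHP2 transcript, 48.2% is overlapped on the other strand by exons of RMND5B, and the sources used here do not say whether strand was used in counting, so its reads may include those of that gene. NOLC1 was at 1056, 1264 and 1030 CPM, above all DMSO libraries (0.38 ± 0.12, adjusted p = 0.0206), and RRP9 was at 88.2, 95.3 and 77.1 CPM against 64.7, 80.1 and 62.5 CPM, with overlap (0.33 ± 0.11, adjusted p = 0.0363). EBNA1BP2 was at 307, 304 and 262 CPM, above all DMSO libraries (0.51 ± 0.11, adjusted p = 0.00296), and was the only one of the 6 whose call held without each library. LYAR (0.33 ± 0.11, adjusted p = 0.0269) was at 252, 272 and 211 CPM, overlapping DMSO at 190, 216 and 178 CPM. POLR1D (0.18 ± 0.07, adjusted p = 0.0444) was at 215, 210 and 216 CPM, above DMSO at 175, 187 and 202 CPM.

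Apart from that of EBNA1BP2, these calls were lost when certain libraries were left out, at times with little change in the estimate. Without a DNR library, which is outside the comparison, the log2 fold change stayed at 0.625 to 0.626 for NHP2 and 0.176 to 0.177 for POLR1D. Without DMSO replicate 1 it was 0.425 for NHP2 and 0.122 for POLR1D. The call of NHP2 was lost without DMSO replicates 1 (adjusted p = 0.197) or 3 (0.115), any DNR library (0.0633 to 0.0667) or any ML-792+DNR library (0.0689 to 0.121). That of NOLC1 was lost without DMSO replicate 3 (0.0979) or ML-792+DNR replicate 2 (0.0799). That of RRP9 was lost without DMSO replicates 1 (0.148) or 3 (0.158), DNR replicate 1 (0.0565) or ML-792+DNR replicates 1 (0.104) or 2 (0.116), and that of LYAR without DMSO replicates 1 (0.1001) or 3 (0.126) or ML-792+DNR replicates 1 (0.0941) or 2 (0.0965). POLR1D was called only with all libraries or without DMSO replicate 3, and the adjusted p reached 0.229 without DMSO replicate 1. Leaving out 1 library at a time gave 4 to 12 members lower, the largest count without ML-792+DNR replicate 2 and 8 without DNR replicate 2. It gave 1 to 6 members higher, with 2 without DMSO replicate 1, DMSO replicate 3 or ML-792+DNR replicate 1, 3 without DNR replicate 1 and 1 without ML-792+DNR replicate 2. In replicates 2 and 3 alone, DDX10, NAT10 and POLR1A were lower and no member was higher. Over all genes in that fit, 1251 were lower and 881 higher. None of these fits had the replicate block. In the fit of all 12 libraries with that block, the 6 calls of higher members held (adjusted p up to 0.0168).

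Set against ML-792 alone, ML-792+DNR had 11 members lower and 1 higher, or 27.5% and 2.5%, beside 17.4% lower and 16.3% higher over all genes tested. At least 2-fold changes were found in 6.34% of all genes and in no member. The median log2 fold change of the members was -0.12 (0.016 over all genes), with a range from -0.199 (without replicate 3 of ML-792) to -0.065 (without ML-792+DNR replicate 3). This comparison uses the same ML-792+DNR libraries as the preceding one. DDX10 was at 81.7, 88.8 and 77.1 CPM in ML-792, far above the combination (log2 fold change -0.86 ± 0.12, adjusted p = 0.000186), and POLR1A at 132, 128 and 121 CPM (-0.71 ± 0.13, adjusted p = 0.00107). WDR43 was at 349, 335 and 294 CPM in ML-792 (-0.54 ± 0.13, adjusted p = 0.00696) and TAF1D at 91.7, 82.4 and 82.0 CPM (-0.53 ± 0.16, adjusted p = 0.0213). For these 4 genes the groups did not overlap, a description of the members given without the share over all genes tested. The other calls were POLR1B, NAT10, GNL3, RRS1, DKC1, GNL3L and PES1, with log2 fold changes from -0.52 to -0.27, and EBNA1BP2 was higher (0.43 ± 0.11, adjusted p = 0.00839). The groups also did not overlap for POLR1B, NAT10, GNL3L, PES1 and EBNA1BP2, and overlapped for GNL3, RRS1 and DKC1. With the replicate number as a block 16 members were lower and 4 higher (EBNA1BP2, LYAR, NHP2 and NOLC1), beside 23.3% and 23.4% of all genes.

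Of these 12 calls, those of DDX10, POLR1A, WDR43, NAT10 and EBNA1BP2 held without each library. The adjusted p of TAF1D rose to 0.0683 without ML-792 replicate 1 and to 0.0897 without ML-792+DNR replicate 1. That of POLR1B rose to 0.0662 without ML-792+DNR replicate 1 and 0.0535 without ML-792+DNR replicate 3, and that of GNL3L to 0.0618 and 0.0567 without the same libraries. GNL3, DKC1 and PES1 lost their calls without ML-792 replicates 1 or 2 or ML-792+DNR replicates 1 or 3 (adjusted p from 0.0656 to 0.158), DKC1 also without DMSO replicates 1 (0.0533) or 2 (0.0537), and RRS1 lost it without ML-792 replicates 2 (0.0954) or 3 (0.122), ML-792+DNR replicates 1 (0.143) or 3 (0.0783), or with library size alone (0.0581). The number of lower members was 4 without ML-792+DNR replicate 1, 5 without ML-792+DNR replicate 3, and 7 without ML-792 replicate 1 or 2. It was also 7 when only the 2 groups entered the fit, where GNL3, DKC1, PES1 and RRS1 were not called, and 5 in replicates 2 and 3 alone (DDX10, NAT10, POLR1A, RRS1 and TAF1D). Over all genes, the fit of replicates 2 and 3 gave 996 lower and 759 higher. Shares over all genes in the fits without 1 library or with only these groups are not given. None of these fits had the replicate block, though the number pairs these groups. In the fit of all 12 libraries with that block, the 12 calls held. The adjusted p of those lost above then ran from 0.00154 (POLR1B) to 0.00874 (TAF1D).

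The addition of ML-792 to DNR was compared directly with DNR alone. In edgeR's test no member passed, beside 0.745% of all genes tested, while 6 members had an unadjusted p under 0.05 and DESeq2 called 1, RRS1, and limma voom none. The 6 were RRS1, NOP16, POLR1B, RRP9, TAF1D and RRN3. RRS1, at 38.3, 50.8 and 45.4 CPM in the combination, lay above all DNR libraries (31.0, 35.3 and 33.3 CPM), with a log2 fold change of 0.43 ± 0.13 and an adjusted p of 0.155. NOP16, at 131, 168 and 136 CPM, also lay above its DNR libraries (0.38 ± 0.12, adjusted p = 0.179). POLR1B overlapped between the groups (0.37 ± 0.15, adjusted p = 0.295), and so did TAF1D (-0.37 ± 0.16, adjusted p = 0.343). With the replicate number as a block, which pairs these groups, 3 members were higher: RRS1 (adjusted p = 0.0115), NOP16 (0.00334) and RRP9 (0.0312), beside 1.65% of all genes higher and 2.29% lower.

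Whether DNR acted differently in the presence of ML-792 was tested with the interaction term. No member passed it and 0% of all genes tested did, in edgeR. Of the members, 1 had an unadjusted p under 0.05, TAF1D (-0.50 ± 0.22 on the log2 scale, adjusted p = 0.999), and neither DESeq2 nor limma voom called any. For RRS1 the interaction was 0.25 with a 95% interval from -0.13 to 0.64, for POLR1A -0.21 with an interval from -0.60 to 0.17 and for POLR1B 0.21 with an interval from -0.23 to 0.65. Differences of these sizes in the response to DNR were therefore not resolved with 3 libraries a group.

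MYC, the known activator of many members, differed between the treatments as well. It was at 520, 725 and 584 CPM in DMSO and at 81.5, 146 and 118 CPM in DNR, with no overlap (log2 fold change -2.41 ± 0.28, adjusted p = 4.16e-05). In ML-792 it was at 1045, 1507 and 1296 CPM, above all DMSO libraries, without passing the test (1.07 ± 0.27, adjusted p = 0.196). In the combination it was at 251, 584 and 344 CPM, above all DNR libraries (1.78 ± 0.28 against DNR, adjusted p = 0.0127), below all ML-792 libraries (-1.71 ± 0.27, adjusted p = 0.000525) and overlapping DMSO (-0.63 ± 0.27, adjusted p = 0.0813). With the replicate block, which pairs these groups, it passed in ML-792 (adjusted p = 0.001499) and in the combination (0.000661) against DMSO, as it did with no count filter (1.79e-06 and 0.000565) and without ML-792+DNR replicate 2 (0.0471 and 0.00400). The call against DNR was lost without DNR replicate 1 (0.0639) or DNR replicate 3 (0.0733), in replicates 2 and 3 alone (0.0709) and with only the 2 groups in the fit (0.0731). Its part in the members' changes was not tested.

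The members differ in the length of their genes. The canonical transcripts of DDX10, UTP20 and POLR1A span 276, 107 and 85.7 kb, and DDX10 and POLR1A fell after DNR while UTP20 did not pass (0.07 ± 0.13). These are the 3 members over 60 kb, with 66.7% lower and 0% higher, beside 23.6% and 7.91% of all genes tested in that class. Of the 12 members that span under 10 kb, 2 were lower after DNR (NOP16 and RRS1, a gene of 1 exon that spans 1.72 kb) and 1 higher, or 16.7% and 8.33%, beside 10.5% and 15.7% of all genes tested in that class. Of the 15 that span 10 to 30 kb, 1 was lower and 1 higher (6.67% each, beside 14.5% and 18.8% of all genes). Of the 10 that span 30 to 60 kb, 4 were lower and none higher (40% and 0%, beside 17.6% and 15.2%). Each class holds under 20 members. Over all genes tested, the median log2 fold change after DNR went from 0.12 for spans under 10 kb to -0.12 for spans over 60 kb, and in the combination from 0.23 to -0.21. Across the 40 members the Spearman correlation of span and log2 fold change was -0.20 after DNR and -0.44 in the combination, beside -0.21 and -0.36 across 12272 genes. These correlations are across genes, which share the same libraries and are not independent replicates, and the part of span in the members' changes was not tested.

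**Figure D4:**
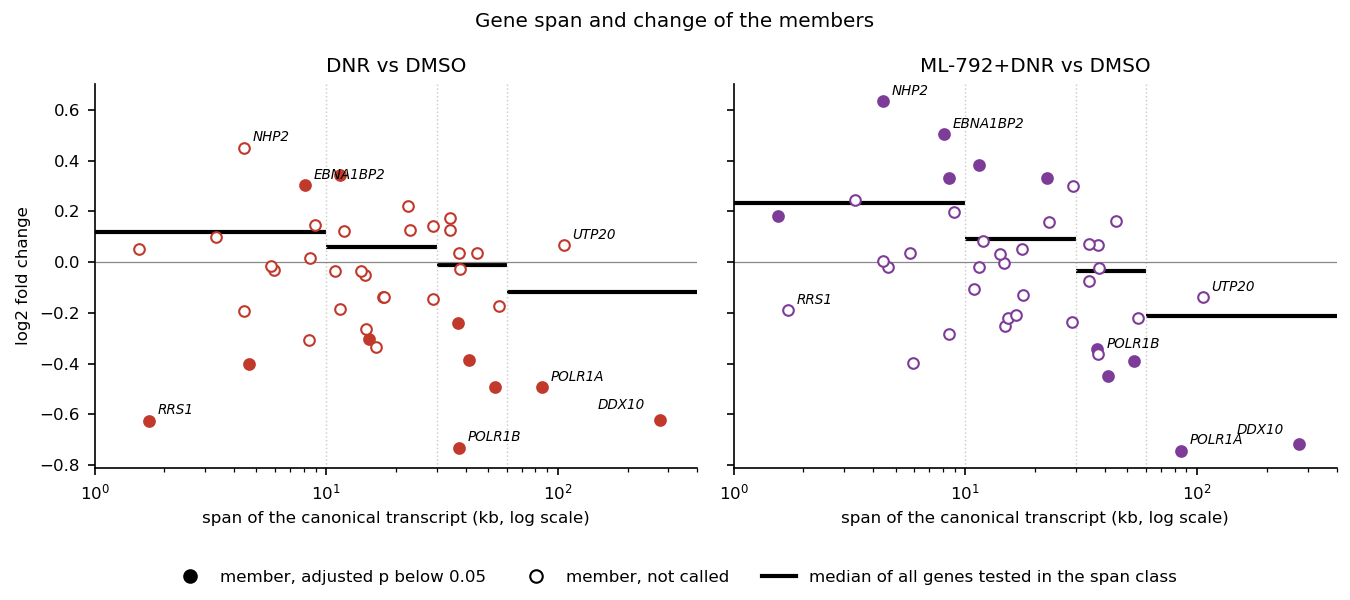
log2 fold change of the 40 tested members against the span of the canonical transcript in kb (log scale), after DNR and ML-792+DNR relative to DMSO; filled points passed an adjusted p under 0.05. Black lines give the median of all genes tested in each span class, from 0.12 to -0.12 after DNR and from 0.23 to -0.21 in the combination.

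Other genes of the same pathway, from lists that hold no member, held calls in both directions. Of 113 tested genes in 4 such lists, 17 were lower and 11 higher after DNR, or 15% and 9.73%, beside 15.7% and 14.3% of all genes. In the combination 16 were lower and 24 higher, or 14.2% and 21.2%, beside 18.4% and 17% of all genes. These counts changed when single libraries were left out. After DNR 9 genes were lower without DNR replicate 1, 11 without the third DNR library and 28 without the second, and 5 to 7 were higher without any DMSO library or DNR replicate 1. In the combination the lower genes numbered 9 without DMSO replicate 1, 7 without ML-792+DNR replicate 1 or 3 and 25 without ML-792+DNR replicate 2, and the higher genes 11 without DMSO replicate 1, 13 without DMSO replicate 3 and 14 without ML-792+DNR replicate 1. Among 13 other genes of RNA polymerase I, 4 were higher and 1 lower after DNR (2 to 6 and 0 to 2 without 1 library at a time). The small subunits POLR2K, shared between polymerases, and ZNRD1 rose: POLR2K from 75.3 ± 1.58 to 106 ± 8.08 CPM (SD, n = 3, log2 fold change 0.50 ± 0.08, adjusted p = 0.000695) and ZNRD1 from 57.3 ± 2.296 to 74.0 ± 2.15 CPM (0.37 ± 0.07, adjusted p = 0.001504). Both calls held without each library. POLR1E, the partner of the polymerase in initiation and elongation, fell from 76.7 ± 1.95 to 59.1 ± 3.71 CPM (adjusted p = 0.0408), a call lost without 6 of the 12 libraries (adjusted p up to 0.132). TAF1C, of the SL1 complex, was also higher (adjusted p = 0.0497), with a call lost without 8 of the 12 libraries (up to 0.261). In the combination 7 of the 13 were higher and 2 lower (4 to 8 and 0 to 3). POLR2L, a subunit shared by the polymerases, had the largest rise, from 48.9 ± 17.2 to 102 ± 13.9 CPM (log2 fold change 1.06 ± 0.36, adjusted p = 0.0329), and TAF1A fell from 32.6 ± 0.85 to 21.0 ± 5.66 CPM (adjusted p = 0.0136). The call of POLR2L was lost without DMSO replicates 1 (0.136) or 3 (0.0538) or ML-792+DNR replicates 1 (0.0698) or 3 (0.0950), and that of TAF1A without ML-792+DNR replicates 1 (0.0644) or 3 (0.0602).

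Among 45 other genes of small subunit processing, 7 were lower and 3 higher after DNR (4 to 11 and 1 to 4 without 1 library at a time, the extremes of the lower genes without DNR replicates 1 and 2). The kinase RIOK2 fell from 63.8 ± 1.92 to 36.8 ± 8.24 CPM (log2 fold change -0.79 ± 0.19, adjusted p = 0.00700), MPHOSPH10 from 112 ± 8.98 to 69.9 ± 13.7 CPM (-0.68 ± 0.16, adjusted p = 0.00715) and PDCD11 from 283 ± 25.4 to 193 ± 32.3 CPM (-0.56 ± 0.14, adjusted p = 0.00918). All 3 calls held without each library, after DNR and in the combination. Among 43 other genes of large subunit assembly, 8 were lower and 4 higher after DNR (4 to 13, without DNR replicates 1 and 2, and 2 to 4). PAK1IP1 fell from 133 ± 6.99 to 87.4 ± 12.5 CPM (-0.61 ± 0.14, adjusted p = 0.00425) and RRP1B from 244 ± 18.2 to 167 ± 33.5 CPM (-0.55 ± 0.14, adjusted p = 0.00825), as did EFL1, the GTPase that releases EIF6 from the large subunit, from 30.2 ± 2.44 to 22.2 ± 1.63 CPM (-0.44 ± 0.10, adjusted p = 0.00641), while RRP8, a nucleolar methyltransferase, rose from 25.2 ± 1.95 to 36.2 ± 1.19 CPM (0.53 ± 0.11, adjusted p = 0.00220). These 4 calls held without each library. Of 12 other snoRNP genes, 1 was lower after DNR (NUFIP1, from 44.8 ± 2.36 to 34.1 ± 4.37 CPM, adjusted p = 0.0108, lost without DNR replicate 3 at 0.0583) and 3 were higher in the combination (0 to 3, with 0 without DMSO replicate 1, DMSO replicate 3 or ML-792+DNR replicate 1). SBDS, which works with EFL1, rose in the combination from 40.7 ± 2.86 to 60.4 ± 0.96 CPM (0.57 ± 0.07, adjusted p = 0.000102). None of these lists had a call in ML-792 against DMSO, and at an unadjusted p under 0.05 there were 3 of the 113 genes in edgeR.

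RNA polymerase III, which makes the 5S ribosomal RNA and transfer RNAs, also held calls in both directions. Of its 21 tested genes, 4 were lower and 3 higher after DNR, or 19.0% and 14.3%, beside 15.7% and 14.3% of all genes, so that these shares were close to the background. In the combination 6 were lower and 2 higher, or 28.6% and 9.52%, beside 18.4% and 17%. The higher genes numbered 0 without DMSO replicate 3 or DNR replicate 1 and 1 without DMSO replicate 1, DNR replicate 2 or DNR replicate 3 after DNR, and in the combination 1 without DMSO replicate 2 or ML-792+DNR replicate 1 and 5 without ML-792+DNR replicate 2. Among those that fell after DNR were the subunit POLR3B, from 46.9 ± 3.78 to 32.0 ± 1.91 CPM (log2 fold change -0.55 ± 0.10, adjusted p = 0.00143), and GTF3C2, a subunit of the factor TFIIIC (-0.44 ± 0.09, adjusted p = 0.00178). The calls of POLR3B and GTF3C2 held without each library, here and in the combination. MAF1, the repressor of this polymerase, was higher after DNR (0.41 ± 0.14, adjusted p = 0.0426), a call lost without 7 of the 12 libraries (up to 0.215). POLR3B, the second-largest subunit of its enzyme, thus fell alongside POLR1B. BDP1, a subunit of the initiation factor TFIIIB, was lower in the combination (-0.63 ± 0.15, adjusted p = 0.00538), a call that held without each library. GTF3C3 was lower there too (-0.47 ± 0.10, adjusted p = 0.00241), and its call also held. Over all 5 lists, 17 of 35 calls after DNR and 24 of 48 in the combination held without each library in turn.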

How the data were processed

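The authors deposited raw counts of reads per gene for each library. Per the labels and the study's methods, the reads came from TruSeq Stranded libraries of polyadenylated RNA, were aligned to hg19 with TopHat2 2.1.1 and Bowtie2 2.3.5.1, and were counted with HTSeq 0.11.1, which left out reads with more than 1 alignment. The strand setting was not given in these sources. The 5 summary lines of the counter were left out. The labels number the replicates of each group from 1 to 3, and the study's methods name 3 independent experiments.

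Genes were kept by filterByExpr (minimum count 10, total 15), scaled by TMM and tested in edgeR 4.0.16 (R 4.3.3) with the quasi-likelihood test on all 12 libraries, with 1 mean per group, adjusted by Benjamini-Hochberg over 13696 genes. The fit was tested on simulated data. CPM are counts per 1000000 reads in genes after TMM scaling. Errors of log2 fold changes are SE, with 95% intervals from the same fit. Deviations from the group means correlated between libraries of the same number (r from 0.0722 to 0.587 over 18 pairs, from -0.498 to 0.0913 over 36 others). The limit set for pairing was r over 0.1 in every same-number pair. It was met except in DNR against DMSO (0.0852 for replicate 1) and the interaction, so the number was taken to pair the samples in the other 4 comparisons.

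DESeq2 1.42.0, limma 3.58.1 (voom), other scalings and filters, the replicate block and leaving out each library were the alternatives. The main fit and all alternatives but the block had no term for the replicate number. Replicates 2 and 3 alone were compared because of the mitochondrial share. Members and other gene lists were chosen with earlier results of these data known. The rule for names gave full values for the 4 members with the largest rise and fall that passed in each comparison, up to 3 of each role class by level, up to 4 called genes of each other list, and MYC. Further members are named to account for all, chosen after their values were seen. Motifs were searched in promoter windows of RefSeq (GRCh38.p14) and placed on GRCh37 by exact match.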

Additional observations from a re-analysis of the deposited data

How the results depend on the processing

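The members' log2 fold changes and counts were recomputed under each alternative, and no called member changed direction. Without 1 library at a time, members higher and lower ranged from 0 to 3 and from 5 to 13 in DNR against DMSO, from 1 to 6 and from 4 to 12 in ML-792+DNR against DMSO, and from 1 to 2 and from 4 to 15 in ML-792+DNR against ML-792, while ML-792 against DMSO, ML-792+DNR against DNR and the interaction stayed at 0. Shares over all genes without 1 library are not given, so these ranges describe the members only. The members' median in DNR against DMSO ranged from -0.147 to -0.01 (log2), and it changed sign in ML-792+DNR against DMSO (-0.085 to 0.025), in ML-792+DNR against DNR (-0.04 to 0.126) and in the interaction (-0.135 to 0.01). DESeq2 called 1 member higher in ML-792+DNR against DNR and 2 in ML-792+DNR against ML-792, where limma voom also called 2. Median-of-ratios size factors and library size alone each left 1 member higher in DNR against DMSO, and library size alone left 3 higher in ML-792+DNR against DMSO. With no count filter, 8 members were lower in ML-792+DNR against DMSO, 2 higher against DNR and 2 higher against ML-792. With only the groups compared in the fit, 7 were lower in ML-792+DNR against ML-792. Shares over all genes with the other tools, scalings and filters or with only the groups compared are not given, so those counts describe the members only. With the replicate block, 4 members were higher and 12 lower in DNR against DMSO, beside 20.3% and 21.8% of all genes. There r fell short of the limit for pairing in replicate 1 (0.0852, beside 0.249 and 0.336 in replicates 2 and 3). With the same block, 12 members were lower in ML-792+DNR against DMSO, 3 higher against DNR and 4 higher against ML-792. The block ended no call. In replicates 2 and 3 alone, members higher and lower were 0 and 3 in DNR against DMSO, 0 and 3 in ML-792+DNR against DMSO and 0 and 5 against ML-792. Over all genes those fits gave 885 and 1026, 881 and 1251, and 759 and 996. At a minimum of 1.5-fold the members' counts were 0 and 3, 1 and 2, and 0 and 2 in the same comparisons, and at 2-fold all were 0. Over all genes tested, the counts at 1.5-fold were 1004 and 995, 1069 and 1136, and 1037 and 1035. The cause of these shifts was not tested, except that a minimum fold can only remove calls.

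With 3 libraries a group, p-values measure the spread between these experiments in 1 cell line at 1 time and dose. Antisense overlap touches NHP2, TSR1 (27.0% of the transcript), HEATR1 (24.8%) and NOP16 (24.5%), where the strand setting of the counting would matter.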
